A study of Mus musculus with 7 samples.

Results

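Tubulins and the enzymes that modify them were examined in whole testis of Phf13 knockout mice, on 3 arrays, and of wild type mice, on 4 arrays. The members were all genes whose symbol begins with Tuba, Tubb, Tubg, Tubd, Tube, Ttll, Agbl or Vash, together with the folding cofactors Tbca to Tbce, the acetyltransferase gene Atat1 and the deacetylase gene Hdac6. The rule found 45 members among 18194 genes with a probe set of 1 gene symbol, and each was represented by the probe set of highest mean signal over all 7 arrays. The symbols Tuba1b, Tuba1c and Tuba3a occurred only on probe sets that carry several symbols, and these were not used here. Agbl1, Agbl2, Ttll2, Tubal3 and Vash1 were not analysed here.

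The mice were 15 to 20 weeks old, per the series' design text. The strain, the way the gene was disrupted and whether each array came from its own mouse are not given in the sources used here, so p-values reflect the spread among these samples alone, and that spread may be technical. RNA was extracted from whole testis, with germ cells and all supporting cells together. Array titles open with a number whose meaning the labels do not state. Its first 4 digits sort the arrays into 3 sets that hold both genotypes, called title groups here. Knockout 1 and wild type 1 make up the first, knockout 2 and wild type 2 and 3 the second, and knockout 3 and wild type 4 the third.

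Microtubules are hollow polymers of alpha and beta tubulin dimers. In the testis they build the spindles of dividing spermatocytes, the manchette that shapes the spermatid head, the axoneme of the sperm tail and the stable bundles of Sertoli cells, the nurse cells of the seminiferous tubule. Folding cofactors assemble the dimers, and the gamma tubulin ring complex starts new polymers. Enzymes then write and erase marks on the finished polymer: Ttll ligases add glutamate or glycine side chains, Agbl carboxypeptidases trim glutamates, Vash proteases remove the terminal tyrosine of alpha tubulin, Atat1 acetylates a lysine inside the tube and Hdac6 removes that acetyl group.

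The start regions of 5 members are shown first, as they hold the letters compared below for genes that moved in opposite directions: Tuba1a, Tubb5 and Tubb3, which were higher in knockout testis, and Ttll10 and Tbcc, which were lower. They are the members past the test whose 250 bases before the start lie outside their own gene model. Each is printed 5′ to 3′ on the gene's strand from RefSeq, build GRCm38.p6. Capitals mark CCAAT, the box bound by NF-Y, or GTTGCC, which matches the left arm of the X-box bound by RFX factors, on either strand. The windows are chr15:98953502-98953751 on the minus strand for Tuba1a, chr17:35838302-35838551 on the minus strand for Tubb5, chr8:123411303-123411552 on the plus strand for Tubb3, chr4:156050818-156051067 on the minus strand for Ttll10 and chr17:46890371-46890620 on the plus strand for Tbcc.
Tuba1a: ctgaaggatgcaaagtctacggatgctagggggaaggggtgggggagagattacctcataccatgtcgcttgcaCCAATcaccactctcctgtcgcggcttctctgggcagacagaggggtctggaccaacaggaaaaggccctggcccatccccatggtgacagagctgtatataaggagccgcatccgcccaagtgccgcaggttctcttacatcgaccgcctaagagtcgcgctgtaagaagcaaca
Tubb5: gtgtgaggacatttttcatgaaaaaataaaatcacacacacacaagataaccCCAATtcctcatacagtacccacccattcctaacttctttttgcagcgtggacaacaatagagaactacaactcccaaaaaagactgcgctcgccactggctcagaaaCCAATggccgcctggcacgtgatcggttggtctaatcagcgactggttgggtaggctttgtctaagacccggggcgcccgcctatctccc
Tubb3: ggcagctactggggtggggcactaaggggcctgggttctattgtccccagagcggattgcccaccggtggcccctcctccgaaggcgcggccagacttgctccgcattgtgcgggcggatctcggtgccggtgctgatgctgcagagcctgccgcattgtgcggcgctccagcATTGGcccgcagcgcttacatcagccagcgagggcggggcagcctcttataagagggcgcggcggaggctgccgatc
Ttll10: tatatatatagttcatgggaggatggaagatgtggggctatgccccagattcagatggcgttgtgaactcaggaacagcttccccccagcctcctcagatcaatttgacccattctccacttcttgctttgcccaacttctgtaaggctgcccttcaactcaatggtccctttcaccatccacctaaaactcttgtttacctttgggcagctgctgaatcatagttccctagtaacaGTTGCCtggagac
Tbcc: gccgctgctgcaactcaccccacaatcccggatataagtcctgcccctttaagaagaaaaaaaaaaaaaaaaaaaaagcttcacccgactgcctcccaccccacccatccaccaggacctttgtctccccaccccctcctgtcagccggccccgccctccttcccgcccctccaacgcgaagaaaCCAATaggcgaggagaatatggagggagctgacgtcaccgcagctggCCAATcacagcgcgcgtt

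Of the 45 members, 38 had a start window in the RefSeq table. CCAAT (or ATTGG on the other strand) stood in the 250 bases before the start of 17 of these 38 members (44.7%), against 37.5% of the 27025 genes in the table. All 4 members that rose held it, as did 3 of the 5 that fell and 10 of the 29 that did not pass. Its first base lay 77 bases before the start in Tubb3, 176 in Tuba1a, 90 and 198 in Tubb5, and 65 and 18 in Tbcc. The counts include windows that lie partly within their own gene model: Hdac6 (158 bases), Agbl4 (49) and Ttll13 (23). For members that did not pass, this overlap was not measured. GTTGCC (or GGCAAC) stood in 8 members (21.1%), against 11.8% of all genes: Agbl3, Atat1, Ttll10, Ttll3, Ttll5, Ttll8, Ttll9 and Tuba8. Of these 8 members Ttll10 fell, with the match 13 bases before its start, and the other 7 did not pass. The cyclic AMP response element TGACGTCA, a palindrome, stood in Tbcc and Tubb2a only among the 38 members, against 1.77% of all genes, and in Tbcc it began 36 bases before the start. TATAAA (or TTTATA) stood in Ttll6 and Tubb2a, against 14.3% of all genes. The motifs were picked with the expression values known, so these counts describe the windows and were not tested.

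Over all genes, 2934 of 18194 passed limma's adjusted p of 0.05, which is 16.1%: 1651 rose and 1283 fell, or 1549 and 1680 with each array centred on its median. Phf13 itself read 6.04, 5.83 and 5.71 in knockout 1 to 3 and 8.54 to 8.73 in wild type. The tissue label was checked against markers: all 8 markers of elongating spermatids and all 8 of round spermatids were brighter on average than the median tested gene. Of 3 epididymis markers 0 were, and of 4 brain and neuron markers 1 was. The endothelial and red blood cell lists, which do not set testis apart, had 0 of 5 and 1 of 3 such markers. Single arrays differed: the epididymis gene Adam7 read 7.07 in knockout 2 and 5.20 in wild type 3, against 3.02 to 3.49 on the other arrays. Lcn5 and Lcn8, the other epididymis markers measured, read 3.56 to 4.19 and 4.26 to 4.69 over all arrays. Of 9 Sertoli markers 8 rose, and of 5 Leydig markers, genes of the testosterone-producing cells, 3 rose. Of 6 peritubular myoid markers 2 rose, of 7 macrophage markers 3 and of 8 spermatogonial markers 1. Of 9 spermatocyte markers 2 fell, as did 2 of 8 round spermatid markers and 1 of 3 red blood cell markers. Among elongating spermatid markers 0 of 8 passed, though all 8 differences were negative. With a block for title group 7 Sertoli, 3 Leydig, 2 myoid and 2 macrophage markers were past the threshold and higher, and 2 spermatocyte markers lower, while no spermatogonial, round spermatid or red blood cell marker passed (limma adjusted p 0.0591 for Dmrt1, 0.0788 for Tssk2, 0.0809 for Crem and 0.0562 for Epb42). In the fit without a block, none of 4 brain and neuron markers, 3 epididymis markers or 5 endothelial markers passed (limma). At an unadjusted p under 0.05 (limma) the brain list had 2 genes, and the elongating spermatid, epididymis and endothelial lists had 0, beside 33.8% of all genes.

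Of the 45 members, 9 passed the test (20%), beside 16.1% of all genes. The 4 that rose were the tubulin genes Tuba1a, Tubb5 and Tubb3 and the deacetylase gene Hdac6, beside 9.07% of all genes that rose. The 5 that fell were the ligase genes Ttll10, Ttll7 and Ttll13, the deglutamylase gene Agbl4 and the cofactor gene Tbcc, beside 7.05% of all genes that fell. None of the 22 members of the tubulin families and ring complex fell, and none of the 16 Ttll, Agbl and Vash members rose. At the shares of all genes, few calls would be looked for in groups of this size. Those shares also stand beside the counts by role group below. The median log2 difference of the members, knockout minus wild type, was −0.14, and that of all tested genes was −0.045. An unadjusted p under 0.05 was found for 21 members (limma), beside 33.8% of all genes. Of the 45 members 36 were brighter on average than the median tested gene, and 49.7% of the genes above it had such a p (limma). Which members passed depended on single arrays: 0 of 45 did without knockout 3 (limma), when 0.962% of all genes passed. In that run 17 had an unadjusted p under 0.05 (limma), beside 26.4% of all genes. Members past the threshold numbered 2 without knockout 1 (5.47% of all genes), 3 without wild type 1 (4.07%) and 5 without wild type 2 (7.50%). With the title groups as a block 5 of the 9 stayed past the threshold, Tuba1a, Tubb5, Hdac6, Ttll10 and Agbl4, when 12.7% of all genes passed.

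**Figure D1:**
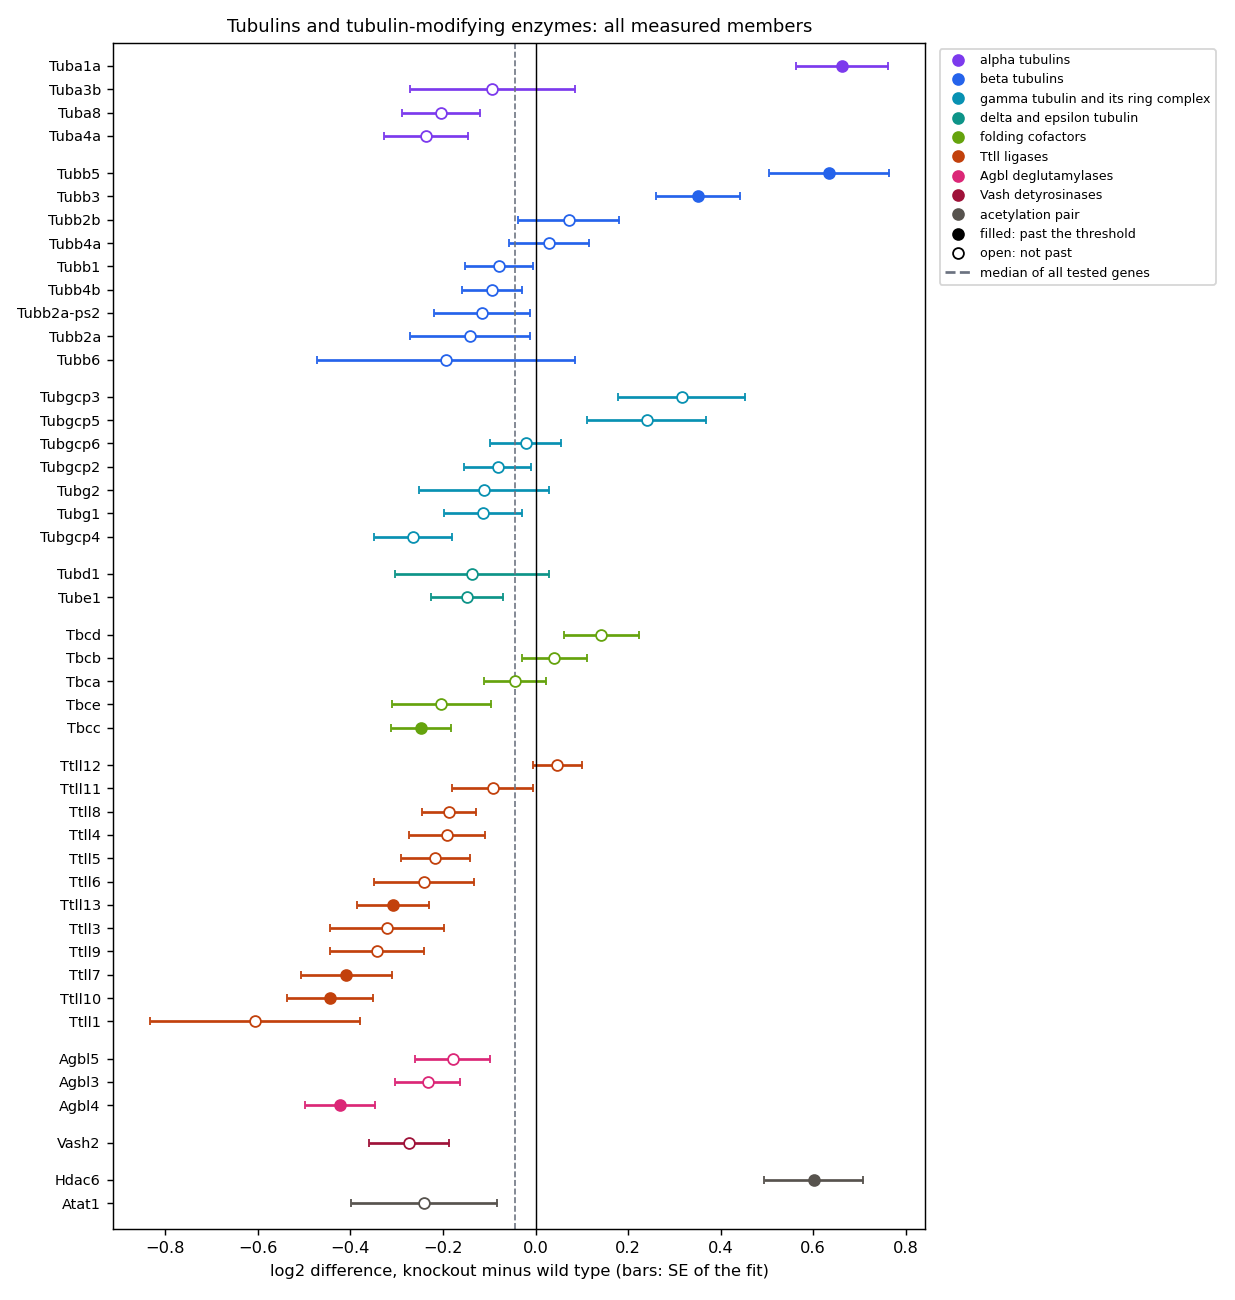
Log2 difference between knockout and wild type for all 45 members, grouped by role, with the standard error of the fit as bars, filled points for members past the threshold and a dashed line at the median of all tested genes. The filled points to the right of 0 are Tuba1a, Tubb5, Tubb3 and Hdac6, and 11 of the 12 Ttll ligases lie to the left of 0.

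Among alpha tubulins, 1 of 4 rose, 0 fell and 3 did not pass, and the gene that rose was Tuba1a, the alpha tubulin known from neurons and dividing somatic cells. Its log2 signals were 11.01, 10.96 and 11.27 in knockout 1 to 3 and 10.34, 10.28, 10.56 and 10.49 in wild type 1 to 4. Every knockout array lay above every wild type array. The means were 11.08 ± 0.17 (SD, n = 3) and 10.42 ± 0.13 (SD, n = 4), and the log2 difference was 0.66 (SE 0.10, limma adjusted p = 0.0116), 1.58-fold higher in knockout. An exact two-sided permutation test gave p = 0.0286, the smallest that 35 divisions of the arrays allow, without adjustment for the number of genes. The same test gave 0.0286 for the other members past the threshold, except Hdac6 and Ttll7, with 0.0571 each. Within the title groups the difference was 0.67, 0.54 and 0.78. The call held in 6 of 7 runs with 1 array left out, and without knockout 3 its adjusted p was 0.0502 (limma). This probe set's name carries the suffix x, which Affymetrix gives to sets with probes that may also match other transcripts, and alpha tubulin genes are close copies, so part of the signal may come from another of them.

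The other alpha tubulins did not pass. Tuba4a, an alpha tubulin made without the terminal tyrosine, read 11.18, 10.99 and 11.34 in knockout and 11.44, 11.45, 11.29 and 11.45 in wild type. Knockout 3 lay above the lowest wild type array, and the difference of −0.24 (SE 0.09) did not pass (limma adjusted p = 0.107). The second of its 3 probe sets by signal had a difference of −0.32 with adjusted p = 0.0405 over all probe sets (limma), and the dimmest had −0.0083. Tuba8, known from testis and muscle, had a difference of −0.20 (SE 0.08, limma adjusted p = 0.129), with knockout signals of 10.16 to 10.40 and wild type signals of 10.39 to 10.61. The only probe set of Tuba3b alone was dim, with signals of 3.98 to 4.80 over the 7 arrays, and was not shown to lie above background.

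Of 9 beta tubulin genes, 2 rose and 0 fell, and the median difference of all 9 was −0.08. Tubb5, the beta tubulin of most dividing and somatic cells, read 9.57, 9.30 and 9.55 in knockout and 8.82, 8.55, 9.11 and 8.88 in wild type. The lowest knockout array was thus above the highest wild type array. Its mean was 9.47 ± 0.15 (SD, n = 3) against 8.84 ± 0.23 (SD, n = 4), a log2 difference of 0.63 (SE 0.13, limma adjusted p = 0.0190) and a level 1.55-fold higher. Within the title groups the difference was 0.75, 0.47 and 0.67. Leaving out knockout 1 gave an adjusted p of 0.0662, wild type 1 gave 0.0578 and knockout 3 gave 0.0708 (limma), and the other 4 runs with an array left out kept the call. A second probe set of Tubb5 had a difference of 0.46 (SE 0.18) and its arrays overlapped.

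Tubb3, the class III beta tubulin of neurons that Sertoli cells also make, rose by 0.35 on the log2 scale (SE 0.09, limma adjusted p = 0.0350). Its signals were 7.22, 6.94 and 7.18 in knockout and 6.75, 6.62, 6.85 and 6.83 in wild type. The groups did not overlap, though knockout 2 stood closer to wild type 3 than to the other knockout arrays. This call held in 2 of 7 runs with 1 array left out. Leaving out knockout 1 gave an adjusted p of 0.109, knockout 3 gave 0.113, wild type 1 gave 0.0885, wild type 2 gave 0.0804 and wild type 4 gave 0.0525 (limma). A block for title group gave 0.0576, and quantile normalization gave 0.0549.

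Tubb4b, a beta tubulin of cilia and sperm tails, had signals of 12.20, 12.15 and 12.09 in knockout and 12.33, 12.23, 12.25 and 12.15 in wild type. Its difference was −0.09 (SE 0.07, limma adjusted p = 0.345). Tubb6 varied most of the beta tubulins within both groups: knockout 3 read 8.90 against 7.93 and 8.03 in the other knockout arrays, and wild type 2 read 9.07 against 8.11 to 8.38. The difference of Tubb6 was −0.19 (SE 0.28), smaller than its error. Tubb2a had a difference of −0.14, and Tubb1, Tubb2b, Tubb4a and the pseudogene Tubb2a-ps2 were dim, with mean signals below the median of tested genes and differences of −0.12 to 0.07.

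**Figure D2:**
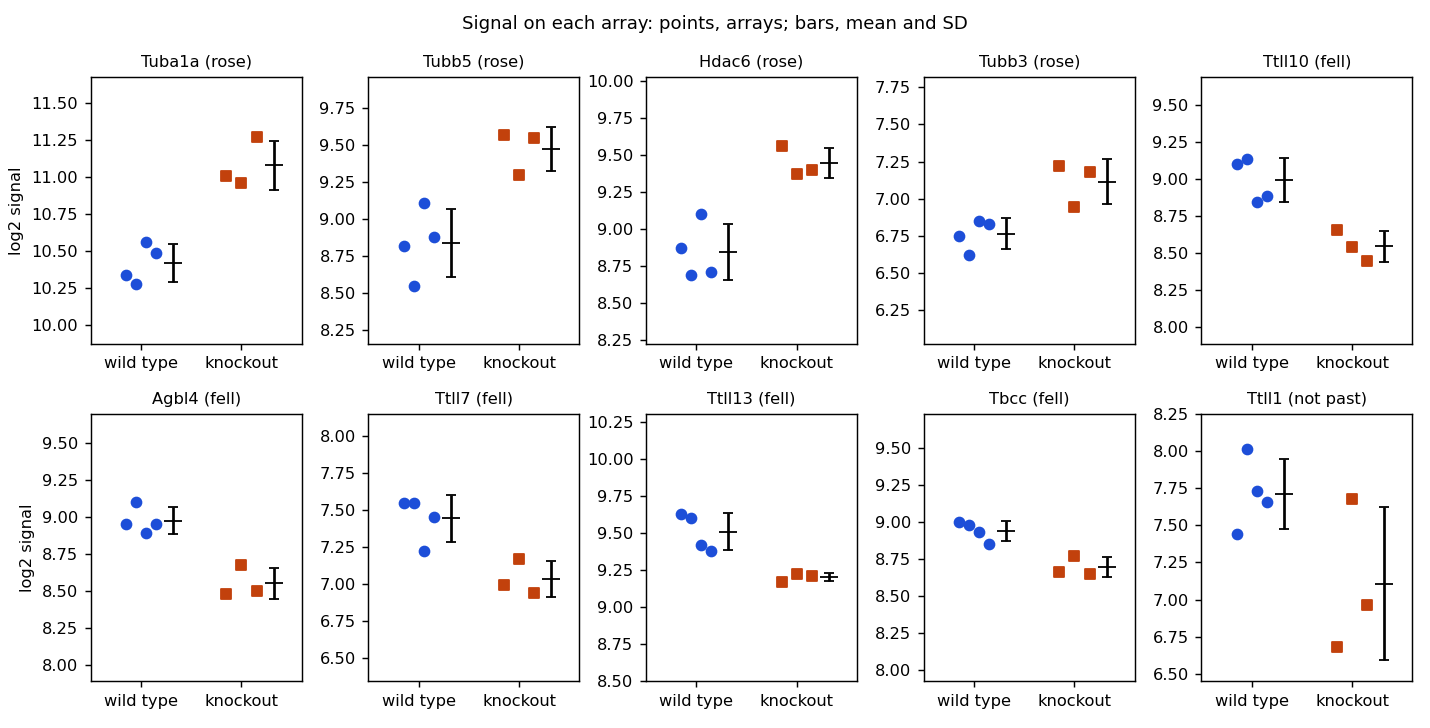
Log2 signal on each array for the 9 members past the threshold and for Ttll1, with wild type arrays as circles, knockout arrays as squares, and the mean and SD of each group as bars; the axis spans the same range of log2 signal in every panel. In the 9 called members no knockout array lies among the wild type arrays, whereas for Ttll1 knockout 2 (7.68) does.

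The rise of these tubulin genes stood beside that of somatic markers. Averaged over its 9 genes, the Sertoli list read 9.28 to 9.49 in knockout and 8.61 to 8.97 in wild type arrays, with a median difference of 0.625. The 5 Leydig markers read 9.41 to 9.91 against 8.61 to 9.09, and the 7 macrophage markers 6.42 to 7.08 against 6.0 to 6.31. Wild type 3 had the highest Tuba1a, Tubb5, Tubb3 and Hdac6 signals among wild type arrays and also the highest Sertoli mean, and wild type 2 had the lowest of each. Among knockout arrays, knockout 2 had the lowest of each. The Sertoli mean and Tuba1a were highest in knockout 3, but Tubb5, Tubb3 and Hdac6 in knockout 1. The Leydig and macrophage means were highest in wild type 4 among wild type arrays. The part of these cells in the result was not tested, and in whole testis more cells of a type and more RNA per cell cannot be told apart.

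Acetylation of alpha tubulin is written by Atat1 and erased by Hdac6. Hdac6, an X-linked gene with 1 probe set, read 9.56, 9.37 and 9.40 in knockout and 8.87, 8.69, 9.10 and 8.71 in wild type. No knockout array fell as low as the highest wild type array. The difference was 0.60 (SE 0.11, limma adjusted p = 0.0143), 1.52-fold higher in knockout, and within the title groups it was 0.69, 0.475 and 0.69. Its adjusted p was 0.0501 without knockout 1 and 0.0555 without knockout 3 (limma). Atat1 had signals of 6.05 to 6.49 in knockout and 6.26 to 6.79 in wild type, with a difference of −0.24 (SE 0.16) that did not pass (limma adjusted p = 0.317).

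Gamma tubulin and the ring complex that holds it gave 0 calls among 7 genes (limma), with a median difference of −0.08. An unadjusted p under 0.05 was found for 2 of the 7 (limma), beside 33.8% of all genes. Tubg1, the main gamma tubulin, read 7.80 to 8.02 in knockout and 7.91 to 8.18 in wild type, and its difference was −0.11 (SE 0.09). Tubgcp4, a subunit of the ring, read 7.43, 7.53 and 7.24 against 7.69, 7.77, 7.63 and 7.57, a difference of −0.265 (SE 0.08) that did not pass (limma adjusted p = 0.0670, and 0.0493 without knockout 2). Its probe sets disagreed: the dimmest of 3 had a difference of 0.27, with the groups apart in the other direction. Tubgcp3 and Tubgcp5, which also build the ring, had differences of 0.32 (SE 0.14) and 0.24 (SE 0.13). Tubgcp2, of the ring's core, read 9.31, 9.38 and 9.16 in knockout and 9.45, 9.37, 9.33 and 9.31 in wild type, which overlapped, with a difference of −0.08 (SE 0.07). Tubg2 and Tubgcp6 were dim, as was Tubgcp3.

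Delta and epsilon tubulin serve the triplet microtubules of centrioles. Tubd1 read 7.67, 7.92 and 7.58 in knockout and 7.65, 7.73, 7.73 and 8.33 in wild type. Wild type 4 stood above all other arrays, and the difference was −0.14 (SE 0.17). Tube1 read 6.04, 6.05 and 5.78 in knockout and 6.09 to 6.15 in wild type. Its groups did not overlap, but the difference of −0.15 (SE 0.08) did not pass (limma adjusted p = 0.219).

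Of 5 folding cofactors, 0 rose, 1 fell and 4 did not pass. Tbcc, which triggers release of the finished dimer from the cofactor complex, read 8.66, 8.77 and 8.65 in knockout and 9.0, 8.98, 8.93 and 8.85 in wild type. All wild type arrays were above all knockout arrays. It fell by 0.25 on the log2 scale (SE 0.07, limma adjusted p = 0.0378), and its adjusted p was 0.0614 when title group was a block, 0.0570 with quantile normalization and 0.0699 for the mean of its probe sets (limma). With 1 array left out the call held in 2 of 7 runs, without knockout 2 and without wild type 4, and in the other 5 the adjusted p ran from 0.0624 without wild type 3 to 0.113 without knockout 3 (limma). Tbca, which carries beta tubulin, read 11.23, 11.36 and 11.25 against 11.23, 11.30, 11.39 and 11.38, a difference of −0.045 (SE 0.07). Tbcb, which carries alpha tubulin, had 0.04 (SE 0.07). Tbcd had 0.14 (SE 0.08), and Tbce had −0.20 (SE 0.11, limma adjusted p = 0.218, and 0.0328 without wild type 3, which at 7.29 was the lowest array).

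Most Ttll ligases had lower signals in knockout testis. Of 12 members, 0 rose, 3 fell and 9 did not pass, where 7.05% of all genes fell. A negative difference was found for 11, where 59.7% of all tested genes had one. Their median difference was −0.27, beside −0.045 for all genes. With quantile normalization the ligase median was −0.25, beside −0.052 for all genes. With each array centred on its median it was −0.30, beside −0.076. Within the title groups the median was −0.39, −0.21 and −0.20. For 7 of the 12 all knockout arrays lay below all wild type arrays, beside 15.2% of all genes. An unadjusted p under 0.05 was found for 9 of the 12 (limma), beside 33.8% of all genes. All 12 were brighter on average than the median tested gene. In the fit of the genes above that median, 49.7% had an unadjusted p under 0.05 (limma). The shares of all genes are thus too low a background for these bright members. In that fit 1736 of 9095 genes fell, among them Ttll5, Ttll7, Ttll8, Ttll9, Ttll10 and Ttll13.

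Ttll10, a glycine ligase that lengthens side chains, read 8.65, 8.54 and 8.44 in knockout and 9.10, 9.13, 8.84 and 8.88 in wild type. The groups stood apart. It fell by 0.44 on the log2 scale (SE 0.09, limma adjusted p = 0.0207), 1.36-fold lower in knockout, with differences of −0.45, −0.445 and −0.44 within the title groups. Its adjusted p was 0.0623 without wild type 1, 0.0749 without knockout 3 and 0.0574 for the mean of its probe sets (limma). Of Ttll10's 7 probe sets 6 had negative differences, from −0.62 to −0.275, and the fifth by signal had 0.23 (SE 0.20) with overlapping arrays. Ttll10 lies within 10 Mb of Phf13 on chromosome 4, in the GRCm38.p6 gene table. Of 163 tested genes in that interval 25 fell (15.3%, beside 7.05% of all genes) and 9 rose (5.52%, beside 9.07%), and the part of the neighbourhood in this result was not tested.

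Ttll7, a glutamate ligase that acts mainly on beta tubulin, read 6.99, 7.17 and 6.94 in knockout and 7.55, 7.55, 7.22 and 7.45 in wild type. Knockout 2 and wild type 3 were close, but the groups did not overlap. It fell by 0.41 on the log2 scale (SE 0.10, limma adjusted p = 0.0293), 0.0588 when title group was a block. For the mean of its 2 probe sets the adjusted p was 0.0716 (limma). The probe set not used here was dim, with signals of 3.32 to 3.50, and had a difference of −0.01 (SE 0.06). The call held in 2 of 7 runs with 1 array left out, without knockout 2 and without wild type 3, and in the other 5 the adjusted p ran from 0.0575 without wild type 4 to 0.101 without knockout 3 (limma).

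Ttll13, a glutamate ligase that extends side chains, read 9.17, 9.22 and 9.21 in knockout and 9.63, 9.60, 9.42 and 9.38 in wild type. The knockout arrays were close together and below all wild type arrays. It fell by 0.31 on the log2 scale (SE 0.08, limma adjusted p = 0.0338), again 0.0588 when title group was a block. Quantile normalization gave an adjusted p of 0.0529 (limma). Its second probe set by signal had a difference of −0.36 (SE 0.08). This call held in 2 of 7 runs, without wild type 3 and without wild type 4, and in the other 5 the adjusted p ran from 0.0629 without knockout 2 to 0.0954 without knockout 1 (limma).

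Ttll1 had the largest difference of the family and did not pass. It is the catalytic subunit of a polyglutamylase complex needed for sperm tails and airway cilia. Its signals were 6.68, 7.68 and 6.96 in knockout and 7.44, 8.02, 7.73 and 7.66 in wild type. Knockout 2 lay within the wild type range, and the other knockout arrays lay below it. The difference was −0.61 (SE 0.23, limma adjusted p = 0.102), and without knockout 2 it was −0.89 with adjusted p = 0.0248 (limma). A second probe set spread further, with 6.19, 8.05 and 6.77 in knockout and 6.85, 8.28, 7.92 and 8.10 in wild type, so that wild type 1 was among the low arrays as well. Its difference was −0.78 (SE 0.46).

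The remaining ligases did not pass. Ttll9, a glutamylase of the axoneme, read 9.0, 9.13 and 9.17 in knockout and 9.57, 9.62, 9.32 and 9.26 in wild type, which did not overlap. Its difference was −0.34 (SE 0.10, limma adjusted p = 0.0542), and the other 2 probe sets of Ttll9 had −0.31 and −0.34. Ttll8, which starts glycine chains, had 10.54, 10.59 and 10.49 against 10.68, 10.77, 10.71 and 10.75, a difference of −0.19 (SE 0.06, limma adjusted p = 0.0609). Ttll3, the other starter of glycine chains, had −0.32 (SE 0.12), and its groups overlapped. Ttll5, a glutamylase needed for normal sperm tails, had −0.22 (SE 0.07, limma adjusted p = 0.0826), Ttll6 had −0.24 (SE 0.11) and Ttll4 −0.19 (SE 0.08). Ttll11 had −0.09 (SE 0.09). Ttll12, which has no known ligase activity of this kind, was the member with a positive difference, 0.05 (SE 0.05), but it was −0.0077 with quantile normalization and −0.048 for the mean of its probe sets.

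**Figure D3:**
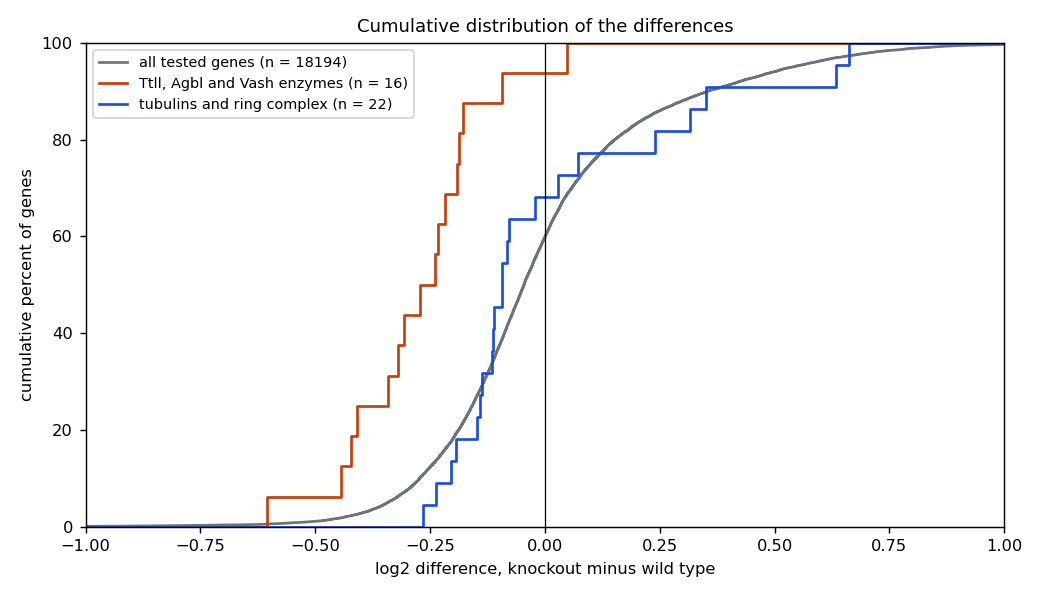
Cumulative percent of genes (vertical) at or below each log2 difference, knockout minus wild type (horizontal), for all 18194 tested genes, for the 16 Ttll, Agbl and Vash members and for the 22 tubulin and ring complex members. The curve of the Ttll, Agbl and Vash members reaches 93.8% at 0. All genes stand near 59.7% there, and the tubulins and ring complex at 68.2%. The acetylation genes Atat1 (not past the threshold) and Hdac6 (rose) are in neither curve of members.

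The Agbl deglutamylases and the detyrosinase Vash2 erase marks other than acetylation. All 4 members had negative differences, as did 59.7% of all tested genes. Of 3 Agbl members, 0 rose, 1 fell and 2 did not pass. Agbl4, a cytosolic carboxypeptidase that shortens glutamate chains, read 8.48, 8.67 and 8.5 in knockout and 8.95, 9.10, 8.89 and 8.95 in wild type. The highest knockout array stood below the lowest wild type array. It fell by 0.42 on the log2 scale (SE 0.08, limma adjusted p = 0.0146), 1.34-fold lower in knockout, with −0.47, −0.325 and −0.45 within the title groups. Its adjusted p was 0.05003 without knockout 1, just above the threshold, and 0.0580 without knockout 3 (limma). The next probe sets by signal had differences of −0.45 and −0.36. Agbl4 lies on chromosome 4 as well, more than 10 Mb from Phf13.

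Agbl3, another chain-shortening enzyme, read 8.0, 8.10 and 8.13 in knockout and 8.42, 8.34, 8.21 and 8.27 in wild type, which did not overlap. Its difference was −0.23 (SE 0.07, limma adjusted p = 0.0577). Agbl5, which removes the branch-point glutamate, had −0.18 (SE 0.08, limma adjusted p = 0.159), with signals of 10.48, 10.65 and 10.77 in knockout and 10.80, 10.91, 10.77 and 10.77 in wild type. Vash2, a tubulin tyrosine carboxypeptidase, read 8.80, 8.74 and 8.65 in knockout and 9.16, 9.07, 8.93 and 8.85 in wild type. Its groups did not overlap, and the difference of −0.27 (SE 0.09) did not pass (limma adjusted p = 0.0654).

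**Figure D4:**
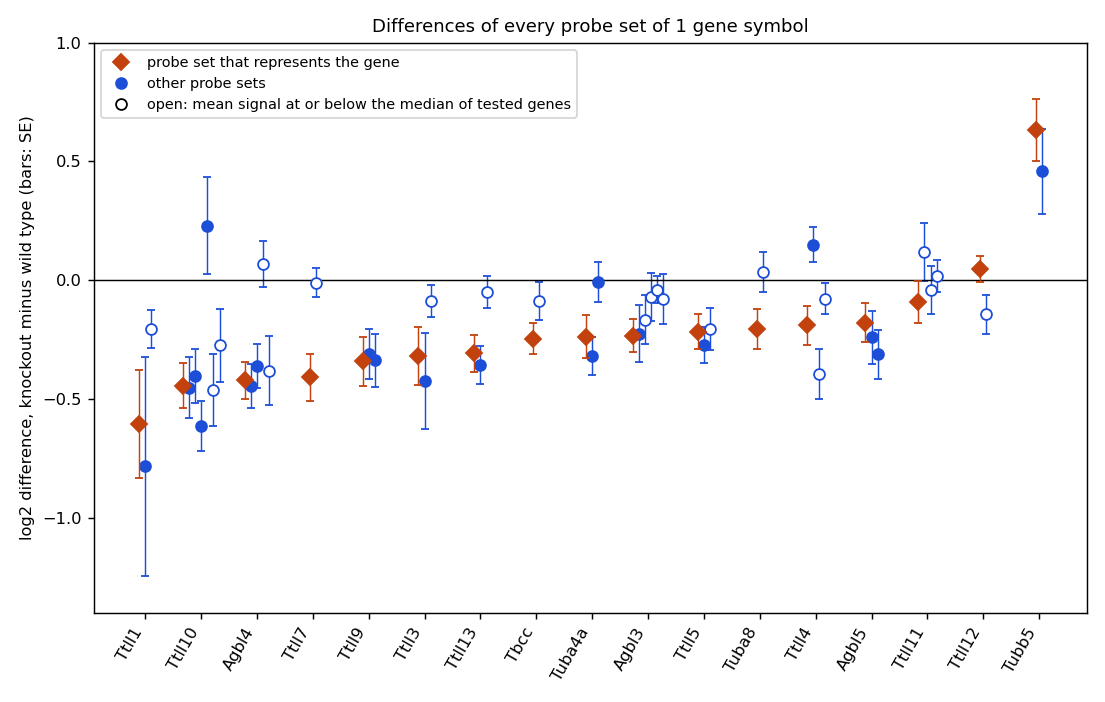
Log2 difference of every probe set of 1 gene symbol, with the standard error of the fit, for the Ttll, Agbl and Tuba members and for Tubb5 and Tbcc where they have more than 1 probe set; diamonds are the probe sets used above, circles the others, and open symbols are no brighter than the median tested gene. Of 16 other Ttll and Agbl probe sets above that median, 14 have the direction of the gene's own diamond, the exceptions being 1 each of Ttll10 and Ttll4.

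Over all members with several probe sets, 21 of 24 further probe sets brighter than the median tested gene had the same direction as the one used. Probe sets of a gene share the same RNA, so this is no replication across animals. Taken over all 45 members, 17 had groups that did not overlap, 4 higher and 13 lower in knockout, which is 37.8% beside 28.0% of all genes. Germ cell markers read as follows beside the lower members. The round spermatid list had a mean of 10.27 to 10.35 in knockout and 10.38 to 10.61 in wild type, with a median difference of −0.20 and all 8 genes negative. The elongating spermatid list had 12.97 to 13.01 against 13.02 to 13.11, with a median difference of −0.07 and all 8 genes negative. Its signals lay near the top of the scale, where Prm1 reached 13.92, the highest value of all probe sets. The spermatocyte list had 9.04 to 9.28 against 9.20 to 9.28. Their part in the lower ligase and deglutamylase signals was not tested.

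Other microtubule genes were read from a list of 61 partners of tubulin, of which 54 were measured: 2 rose, 6 fell and 46 did not pass, with a median difference of −0.09. The called share was 14.8%, near the 16.1% of all genes. When title group was a block 2 rose and 4 fell. The plus-end binding protein genes Mapre2 and Mapre1 rose, by 0.665 (SE 0.16) and 0.51 (SE 0.13) on the log2 scale, with a limma adjusted p of 0.0313 for each. Both calls held in 2 of 7 runs with 1 array left out. Nicn1 and Lrrc49, which encode subunits of the Ttll1 polyglutamylase complex, fell. Nicn1 read 7.32, 7.69 and 7.55 in knockout and 8.06, 7.90, 7.88 and 8.21 in wild type, a fall of 0.49 (SE 0.11, limma adjusted p = 0.0247), which held in 4 of 7 runs with 1 array left out. Lrrc49 read 7.65, 8.16 and 7.68 against 8.25, 8.44, 8.25 and 8.17, a fall of 0.45 (SE 0.13, limma adjusted p = 0.0495), a call kept in 1 of those 7 runs. In both genes knockout 2 was the highest knockout array, as it was for Ttll1 and for Adam7, the epididymis marker that read 7.07 there. The epididymis markers Lcn5 and Lcn8 were instead lowest in knockout 2 among knockout arrays, at 3.56 and 4.26. The part of knockout 2 in these results was not tested. The remaining subunit genes Tpgs1 and Tpgs2 had differences of −0.28 (SE 0.09, limma adjusted p = 0.0645) and −0.08 (SE 0.06).

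Nedd1, which docks the gamma tubulin ring on centrosomes and spindles, fell by 0.47 (SE 0.10, limma adjusted p = 0.0184), kept in 4 of 7 such runs. Its signals were 7.45, 7.83 and 7.48 in knockout and 8.03 to 8.11 in wild type. The microtubule-severing gene Spast fell by 0.39 (SE 0.06, limma adjusted p = 0.0128) and kept its call in 6 of 7 runs with 1 array left out. Its signals of 8.83 to 8.95 in knockout lay below those of 9.19 to 9.33 in wild type. Ttl, the ligase that puts the tyrosine back on alpha tubulin, had a difference of 0.02 (SE 0.06), and Svbp, the binding partner of Vash proteases, had −0.20 (SE 0.06, limma adjusted p = 0.0647). Stmn1, which sequesters tubulin dimers, had 0.05 (SE 0.07).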

How the data were processed

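Total RNA from whole testis was labelled from 2 ug and hybridised to Affymetrix arrays, per the labels' protocols. The values are the authors' deposited log2 signals of 45101 probe sets on 7 arrays. The submitters' processing notes name Affymetrix Expression Console 1.4.1, and the summarisation and normalization are not given in the sources used here. The log2 scale was read from the range, 1.59 to 13.92. Arrays carry no read depth, and their number limits the precision.

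Of the probe sets 34958 had 1 gene symbol in the platform annotation, 932 had several and 9211 had none. Members used 108 of the former, and 7 probe sets with a member symbol among several were left out. The 2 genotypes entered a limma 3.58.1 fit (R 4.3.3; lmFit and eBayes, two-sided) over 18194 genes, with Benjamini-Hochberg adjustment and a threshold of 0.05. Rose and fell denote genes past it. The fit was tested on simulated data.

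Members and lists were chosen with earlier results of these data known. Named with every array were members past the threshold, up to 12 in each direction, and in each role group the member of highest signal and that of smallest p. Other members are named with their difference or range. Up to 4 partner genes were named in each direction. Tpgs1, Tpgs2, Ttl, Svbp, Stmn1 and the arrays of Tubb6, Ttll1, Ttll9 and Agbl3 were picked after their values were seen. Alternatives covered scaling, dim genes, probe sets, fit settings, blocks and single arrays.

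Each array's deviations from its genotype's mean were correlated with those of the other genotype: r was 0.103 to 0.319 inside a title group and at most 0.0227 otherwise. The deviations of a genotype cancel out in every gene. Positive values inside a group therefore force lower ones outside it, which are no separate evidence. No pair of arrays shared over 9.82% of its values.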

Additional observations from a re-analysis of the deposited data

Results flagged for a closer look

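In the wild type group of 4 arrays, 5 of 45 members had 1 array far from the other 3, with a gap to its neighbour, as a share of the group's range, above Dixon's critical value for 4 samples. Chance gives this in about 1 group in 20. Tubd1 was highest in wild type 4, at 8.33, and the gap was 0.60 on the log2 scale. Tubgcp3 was lowest in wild type 2, at 5.30, with a gap of 0.45, and Tuba4a was lowest in wild type 3, at 11.29, with a gap of 0.15. Tubb1 at 4.13 in wild type 2 and Tube1 at 6.15 in wild type 3 were highest by 0.06, above 3 arrays of equal value. None of these 5 members passed the test between genotypes (limma), where 2 of them had an unadjusted p under 0.05, as did 33.8% of all genes.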

How the results depend on the processing

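The number of genes past the threshold was 2934, 175 to 2574 with 1 array left out, and 4 without knockout 3 and wild type 4 together, a setting added after the data were seen. Members past it numbered 9, with 0 to 10 when 1 array was left out (0 to 4 higher, 0 to 6 lower). Without knockout 3 and wild type 4 they numbered 0, with 0 higher and 0 lower (limma). There 19 had an unadjusted p under 0.05 (limma), beside 25.0% of all genes. Members past the threshold numbered 5 with a block for title group (2 lower) and 15 of the 36 tested without the dimmest 50% of genes (11 lower), when 35.9% of the 9095 genes left passed. Quantile normalization kept 6 of the 9 calls, without Tubb3, Ttll13 and Tbcc, and the mean of all probe sets kept 6, without Ttll10, Ttll7 and Tbcc. Members that were lower numbered 3 with quantile normalization and 8 with median centring or with trend and robust settings. The causes of these shifts were not tested beyond the fewer genes or arrays. The members' median difference stayed negative in all 15 settings, from −0.19 to −0.11. Replicate numbers recur in both genotypes, and deviations of same-numbered arrays correlated at 0.182, 0.103 and −0.143 for replicates 1, 2 and 3. The pairs of replicates 1 and 2 also share a title group, and that of replicate 3 does not. The replicate block thus partly repeats the block for title group. With the replicate block 2294 genes and 10 members passed, 8 of them among the 9.

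Sign changes were seen only in members that had not passed, other than single probe sets of Agbl4 and Ttll10. With 1 array left out the difference ran from −0.0125 to 0.0825 for Tbcb, from −0.21 to 0.06 for Tuba3b, from −0.055 to 0.15 for Tubb2b, from −0.0575 to 0.102 for Tubb4a, from −0.5 to 0.00333 for Tubb6, from −0.235 to 0.02 for Tubd1, from −0.19 to 0.005 for Tubg2 and from −0.0533 to 0.0367 for Tubgcp6. Tubb4a had −0.0081 with quantile normalization, −0.0017 with median centring and −0.0067 with the replicate block. Tubd1 had 0.02 with the replicate block and 0.092 without knockout 3 and wild type 4. Ttll12 had −0.0077 with quantile normalization and −0.048 for the mean of its probe sets, where Ttll11 had 0.00083. Other probe sets turned the sign for Agbl4 (0.068), Atat1 (0.0067), Tbca (0.018 and 0.0092), Ttll10 (0.23), Ttll11 (0.12 and 0.018), Ttll12 (−0.14), Ttll4 (0.15), Tuba8 (0.036) and Tubgcp4 (0.27). Arrays carry no depth, and 9 of the 45 members had a mean signal at or below the median of tested genes, where small differences are uncertain.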
